A study of Mus musculus with 8 samples.

Results

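The genes described here are the type IV collagen chains of the mouse, Col4a1 to Col4a6, which make up 6 of the 31723 genes in the deposited table and were found there by their symbols. The RNA came from muscle stem cells, the resident Pax7-positive progenitors of skeletal muscle, freshly isolated from hindlimbs of C57BL/6 mice of WT genotype, with no other allele or agent named in the labels. The 4 old libraries came from mice aged 20 months and the 4 young libraries from mice aged 3 months. The labels do not say whether a library is a single animal or a pool, so that p-values measure the spread between these samples only. The chains were chosen by their normalized counts in these old and young libraries. Their age differences are therefore given as a description, without p-values, and nothing else is supported with them.

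Type IV collagen is the network-forming collagen of basement membranes, the thin matrix sheets that surround muscle fibres, capillaries and peripheral nerves, and beneath which, against the fibre, the muscle stem cell lies. A chain has a long triple-helical part and a carboxy-terminal globular domain that selects its partners, and only certain trimers form: α1α1α2, which is found in nearly all basement membranes, α3α4α5, known from the kidney glomerulus, lung, eye and ear, and α5α5α6, known from skin, smooth muscle and Bowman's capsule. Mutations of COL4A3, COL4A4 or COL4A5 cause Alport syndrome in humans, and mutations of COL4A1 or COL4A2 cause a disease of small vessels, with muscle involvement in some carriers. The genes lie in head-to-head pairs, Col4a1 with Col4a2 on chromosome 8, Col4a3 with Col4a4 on chromosome 1 and Col4a5 with Col4a6 on chromosome X.

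The old libraries held 19040274 to 26684249 reads assigned to genes and the young ones 21585729 to 34679757, and between 18428 and 19013 genes had a value above 0. Values are normalized counts, whole reads divided by a size factor of the library. The isolated cells carried stem cell markers at both ages, and of 12 such markers Itga7 and Calcr were called lower in old libraries and none higher. Pax7 averaged 2749 ± 493 normalized counts in old and 2441 ± 419 in young libraries (SD, n = 4 each), Myod1 15731 ± 4568 and 16087 ± 2593, and Vcam1 20374 ± 2636 and 16131 ± 2482, and none of these 3 differences passed the test over all genes (adjusted p = 0.572, 0.898 and 0.165, limma with Benjamini-Hochberg adjustment). Since Col4a5 and Col4a6 are X-linked, sex-linked genes were also read. Xist, the RNA of X inactivation, was listed at 0 in the 4 old libraries and at 3.60, 0, 9.17 and 0 in young libraries 1 to 4. The Y-linked Ddx3y averaged 9118 ± 1520 normalized counts in old and 9786 ± 881 in young libraries, and Eif2s3y, Kdm5d and Uty were also present in every library.

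In the old libraries the X-linked chains were far more abundant than in the young ones, and Col4a1 was less abundant. Which of the cells in a library held this RNA was not tested. Col4a6, the α6 chain, had a mean 20.0 times that of young libraries, and Col4a5, the α5 chain, a mean 6.54 times that of young libraries. Col4a3 and Col4a4 had means 1.93 and 1.94 times those of young libraries, and the ages overlapped. Col4a1 and Col4a2, by far the most abundant of the family per kilobase at both ages, stood at 63.4% and 71.8% of the young mean. In a fit across the 14822 genes that averaged 10 or more normalized counts (limma on log2(normalized count + 1), Benjamini-Hochberg adjusted p under 0.05), all 6 members entered. Over all genes tested, 3.34% passed the threshold with higher and 1.88% with lower values in old libraries, 5.22% in all, and such genes are referred to as called. Of the chains 2 lay past it upward (Col4a5, Col4a6) and 1 downward (Col4a1), which is no test of them, since they were chosen on these values, and nothing is read from it. Their median log2 fold change was 0.95, against 0.045 over all tested genes.

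**Figure D1:**
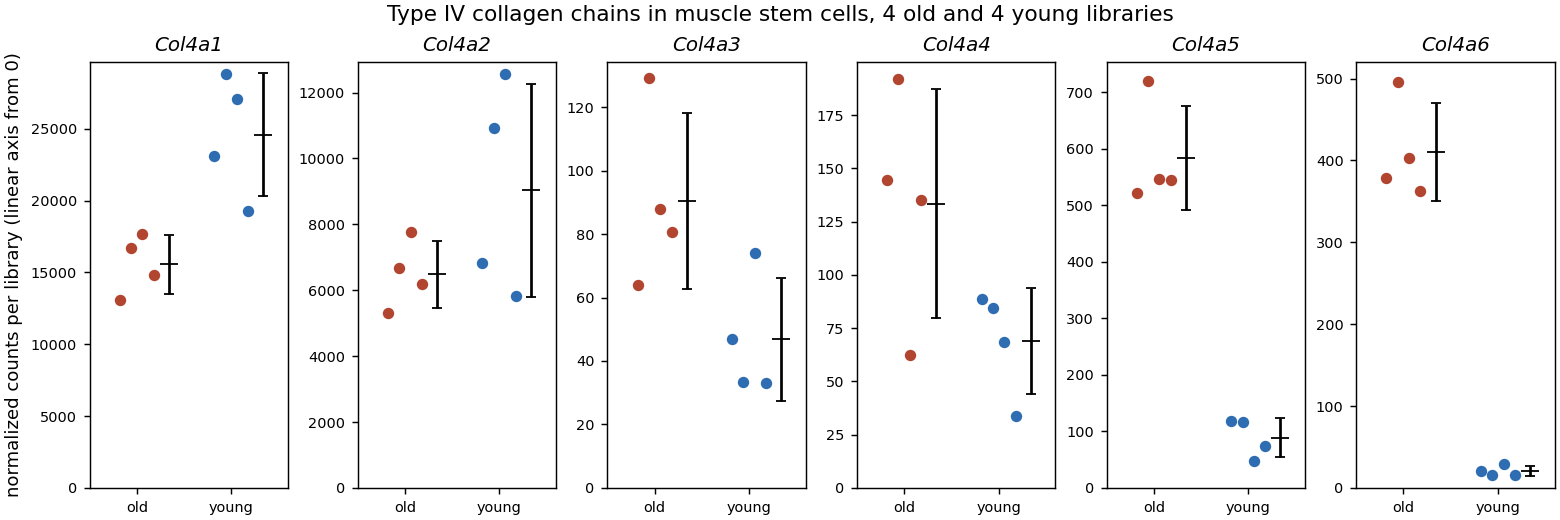
Normalized counts of the 6 chains (linear axes from 0, a scale for each gene) in the 4 old (red, left) and 4 young (blue, right) libraries, with the mean ± SD of each age as a black bar. The 4 old libraries lie above all young ones for Col4a5 and Col4a6 and below all young ones for Col4a1, while the ages overlap for Col4a2, Col4a3 and Col4a4. Of all tested genes, 7.99% have all 4 old libraries above all 4 young ones and 5.46% have them all below.

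The X-linked pair had the largest differences of the 6 chains. Its chains meet in the α5α5α6 trimer. Col4a6 had 378, 496, 402 and 363 normalized counts in old libraries 1 to 4, against 20.4, 16.1, 29.6 and 15.7 in young libraries 1 to 4. The lowest old library was 12.2 times the highest young library, so that the ages were far apart. All 4 old libraries lay above all 4 young ones in 7.99% of all tested genes. The young values rest on 34, 17, 42 and 19 reads and the old ones on 403, 607, 375 and 464 reads. The log2 fold change (old over young) was 4.29 ± 0.24 (SE), and over 24 alternative settings it lay between 3.89 and 4.48.

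Col4a5, which is the partner of α6 but also of α3 and α4, had 522, 720, 547 and 544 normalized counts in old libraries 1 to 4, against 118, 117, 47.3 and 74.4 in young libraries 1 to 4. The lowest old library was 4.41 times the highest young library. Old library 2 was the highest, and the other 3 old libraries lay close together. The log2 fold change was 2.78 ± 0.28, between 2.12 and 2.94 over the alternatives.

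The start regions of the X-linked pair are shown because both genes differed in the same direction. In the RefSeq annotation (GRCm38.p6) the gene models of Col4a6 and Col4a5 stand head to head with 1274 bases between them. Each sequence runs 5′ to 3′ on the strand of its gene, upstream of the annotated start and across its first bases, at chrX:141474077-141474326 (minus strand) for Col4a6 and chrX:141475169-141475399 (plus strand) for Col4a5. Capitals mark 3 motifs, each searched on both strands. One is the GC box, spelled GGGCGG. Another is the CCAAT box, named for its letters. The last is the octamer CCCTCCCC, which in Col4a5 overlaps the GC box.
Col4a6: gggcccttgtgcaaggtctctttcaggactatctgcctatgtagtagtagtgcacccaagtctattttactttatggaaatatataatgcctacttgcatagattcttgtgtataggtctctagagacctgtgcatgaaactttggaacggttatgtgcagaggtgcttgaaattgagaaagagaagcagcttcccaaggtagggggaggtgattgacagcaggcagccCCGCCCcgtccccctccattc
Col4a5: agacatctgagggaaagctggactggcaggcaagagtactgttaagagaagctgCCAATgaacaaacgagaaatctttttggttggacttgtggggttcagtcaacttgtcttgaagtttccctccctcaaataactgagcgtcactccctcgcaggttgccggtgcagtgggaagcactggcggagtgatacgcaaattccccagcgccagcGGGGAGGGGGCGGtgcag
Col4a6 held a GC box alone, and Col4a5 held all 3 motifs. In windows of 300 bases around 32851 starts, 35.7% held a GC box, 37.4% a CCAAT box and 10.8% the octamer. The windows of Col4a1 and Col4a2, whose means were lower in old libraries, also held all 3 motifs, and that of Col4a4 held none of them. A TATA box (TATAAA) stood in 13.6% of all windows and an AP-1 motif (TGANTCA) in 7.81%, and neither was found in the windows of Col4a1, Col4a2, Col4a4, Col4a5 or Col4a6. An E-box (CANNTG) was found in the windows of Col4a4 and Col4a5 and in 72.3% of all windows. The window of Col4a6 had 48.3% G or C and that of Col4a5 52.7%, against a median of 52.7% over all windows, while those of Col4a1 and Col4a2 had 74.0% and 73.7%. These matches describe letters, not bound sites.

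The genes on either side of the X-linked pair were read as well. Atg4a, an autophagy protease that lies beyond the 3′ end of Col4a6, averaged 197 ± 45.7 normalized counts in old and 222 ± 75.9 in young libraries (log2 fold change -0.15 ± 0.24, adjusted p = 0.793, limma with Benjamini-Hochberg adjustment). Irs4, an insulin receptor substrate beyond the 3′ end of Col4a5, was listed at 0 in all 8 libraries. These 2 neighbours were picked after the values of the pair were known.

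Col4a1 and Col4a2, which together make the α1α1α2 trimer, both had lower means in old libraries. Col4a1 had 13091, 16734, 17704 and 14793 normalized counts in old libraries 1 to 4, against 23128, 28846, 27085 and 19262 in young libraries 1 to 4. The highest old library was at 0.919 of the lowest young library, so that the ages did not overlap but lay close. Over all tested genes, 7.99% had all 4 old libraries above all 4 young ones and 5.46% had them all below. The log2 fold change was -0.65 ± 0.14, between -0.80 and -0.57 over the alternatives. Leaving out single libraries gave -0.67 without young library 1, -0.57 without young library 2 or old library 1, and -0.60 without young library 3. It gave -0.69 or -0.63 when old library 2 or 4 was dropped. Col4a1 was short of the threshold in each of these fits, which is no test of it, since it was chosen on these values.

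Col4a2 had 5316, 6677, 7755 and 6189 normalized counts in old libraries 1 to 4, against 6837, 10918, 12562 and 5811 in young libraries 1 to 4. Young libraries 1 and 4 lay among the old libraries, and young libraries 2 and 3 lay above them all. The log2 fold change was -0.42 ± 0.23, and over the 24 alternatives it ran from -0.74 to -0.24. It was -0.24 without young library 3. In RNA of isolated cells, fewer cells of a type and less RNA per cell cannot be told apart.

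The libraries highest in Col4a2 were also high in markers of endothelium, a cell type known to make α1 and α2 chains. The mean log2(normalized count + 1) of 14 endothelial markers was 10.8, 10.5, 11.9 and 10.6 in old libraries 1 to 4, against 10.3, 11.2, 12.1 and 10.3 in young libraries 1 to 4. None of these markers was at 0 in all libraries, and their summed level ran from 26949 to 68501 normalized counts in old and from 23349 to 82132 in young libraries. The test called 0 of the 14 (limma), as did edgeR and DESeq2, and 0 had an unadjusted p under 0.05. With the endothelial level as a covariate, the log2 fold change of Col4a2 was -0.40 ± 0.13, that of Col4a1 -0.64 ± 0.11, and those of Col4a5 and Col4a6 2.76 ± 0.24 and 4.30 ± 0.24. Among old libraries Col4a1 was highest in library 3, as the markers were. Among young ones it was highest in library 2 (28846), above library 3 (27085), where the markers were highest. The part of endothelial cells in the values of Col4a1 and Col4a2 was not tested.

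Col4a3 and Col4a4, which form the α3α4α5 trimer with α5, were scarce at both ages. Col4a3 had 63.8, 129, 88.0 and 80.5 normalized counts in old libraries 1 to 4, against 46.8, 33.2, 74.1 and 33.1 in young libraries 1 to 4. Young library 3 lay above old library 1, so that the ages overlapped. The log2 fold change was 0.97 ± 0.32, and without young library 3, its highest young library, it was 1.21. It then lay past the threshold, which is no test of it, since the chains were chosen on these values. Another gene, C430014B12Rik, shares 5.65% of the exon bases of Col4a3 in the GENCODE annotation. It is not listed in the deposited values under that symbol, and the sources used here do not give strandedness.

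Col4a4 had 145, 192, 62.3 and 135 normalized counts in old libraries 1 to 4, against 88.9, 84.5, 68.4 and 33.9 in young libraries 1 to 4. Old library 3 lay below 3 of the 4 young libraries. The log2 fold change was 0.93 ± 0.39, and the sign turned in 1 alternative, described with the fibroblast markers. These values rest on between 41 and 235 reads per library.

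**Figure D2:**
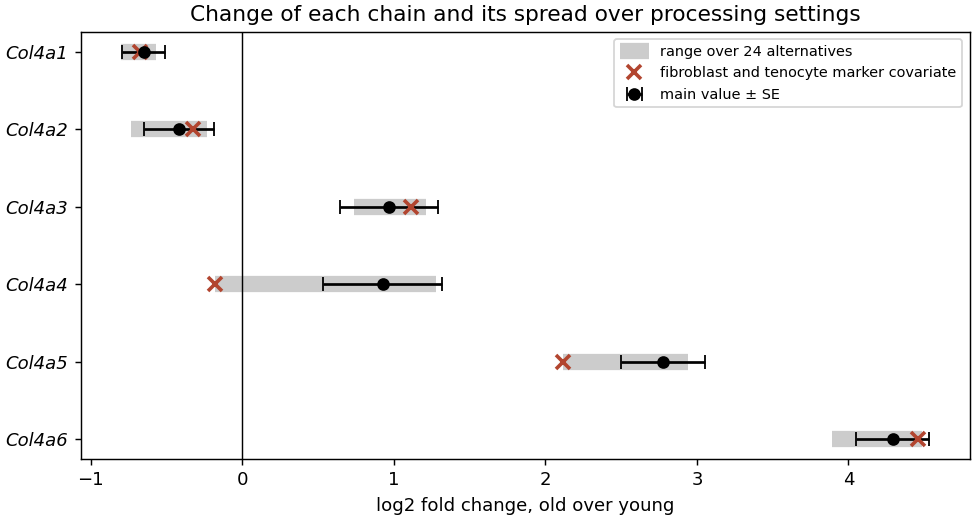
Log2 fold change (old over young) of each chain, with the value of the fit across all genes ± SE (black), the range over 24 alternative settings (grey bar) and the value with the fibroblast and tenocyte marker covariate (red cross). The crosses of Col4a4 and Col4a5 lie at the low end of their ranges, at -0.18 and 2.12, and that of Col4a6 lies at 4.46, near the main value.

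Compared per length of transcript, the order of the chains changed with age at its lower end. Levels per kilobase were computed with the longest coding transcript of each gene in the GENCODE annotation, which has between 6450 bases (Col4a2) and 10108 bases (Col4a4). In old libraries the mean levels were 2355 ± 311 normalized counts per kilobase for Col4a1, 1005 ± 158 for Col4a2, 89.2 ± 14.0 for Col4a5, 61.7 ± 8.98 for Col4a6, 13.2 ± 5.30 for Col4a4 and 10.6 ± 3.24 for Col4a3 (SD, n = 4). In young libraries they were 3716 ± 646 for Col4a1, 1400 ± 500 for Col4a2, 13.7 ± 5.29 for Col4a5, 6.82 ± 2.47 for Col4a4, 5.47 ± 2.25 for Col4a3 and 3.08 ± 0.972 for Col4a6. In old libraries the ranges of Col4a3 and Col4a4 overlapped and no other neighbours in the order did. In young libraries the range of Col4a5, 7.23 to 18.1 per kilobase, overlapped that of Col4a4, 3.35 to 8.79, and the ranges of Col4a4, Col4a3 and Col4a6 overlapped in turn. Col4a6 was thus the scarcest chain by its mean in young libraries and the fourth most abundant in old ones.

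As a share of all type IV collagen transcripts per kilobase, Col4a5 and Col4a6 together made up 4.62%, 4.88%, 3.57% and 4.11% in old libraries 1 to 4, against 0.461%, 0.334%, 0.193% and 0.358% in young libraries 1 to 4. Every old library lay well above every young one. The share of Col4a1 and Col4a2 together was 95.0% ± 0.780 in old and 99.4% ± 0.139 in young libraries, so that the α1 and α2 chains remained most of the family's RNA at both ages. The summed level of the 6 chains averaged 3535 ± 475 normalized counts per kilobase in old and 5145 ± 1120 in young libraries. With the union of all annotated exons as the length, Col4a5 and Col4a6 made up 4.31% ± 0.586 in old and 0.351% ± 0.120 in young libraries.

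**Figure D3:**
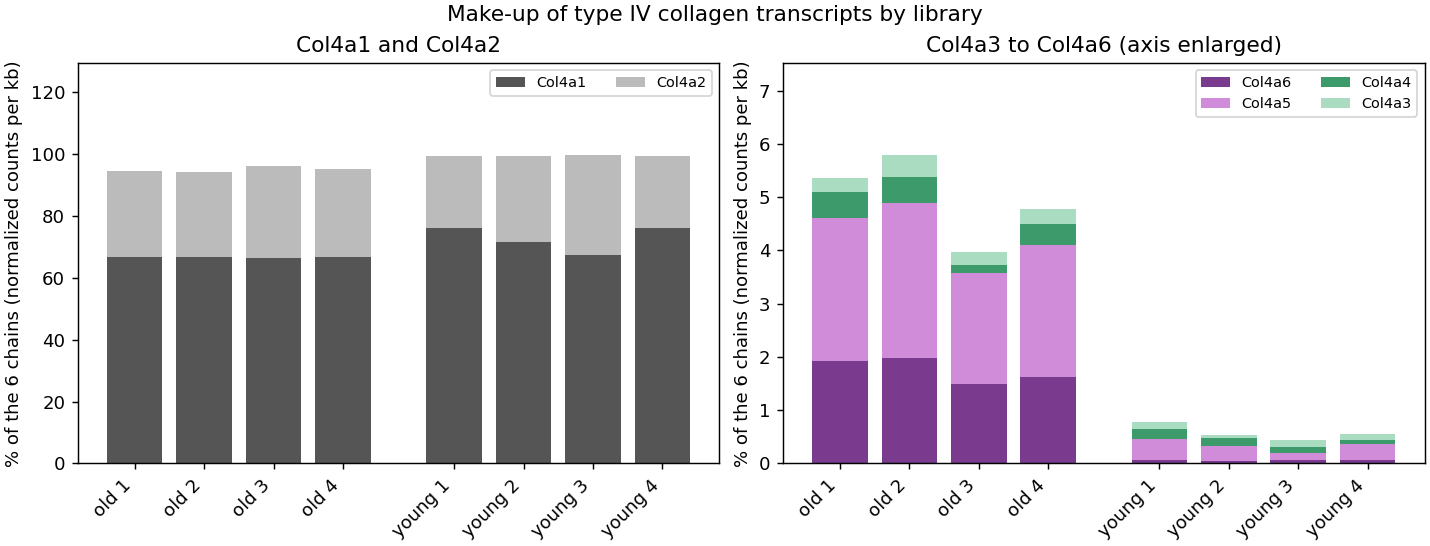
Share of each chain in the summed normalized counts per kilobase of the 6 chains, for old libraries (left of each panel) and young libraries (right), with Col4a1 and Col4a2 in the left panel and the other 4 chains, on an enlarged axis, in the right panel. Col4a3 to Col4a6 together reach 3.98% to 5.78% in old libraries and 0.447% to 0.772% in young libraries.

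The ratio within a pair had the smaller SD among old libraries for 2 of the 3 pairs. The ratio of Col4a5 to Col4a6 per kilobase was 1.40, 1.48, 1.38 and 1.53 in old libraries 1 to 4, against 5.89, 7.36, 1.62 and 4.82 in young libraries 1 to 4. In young library 3 the ratio was thus near the old values, with the lowest Col4a5 and the highest Col4a6 of the young libraries. The ratio of Col4a1 to Col4a2 was 2.40, 2.44, 2.23 and 2.33 in old libraries 1 to 4, against 3.30, 2.58, 2.10 and 3.23 in young libraries 1 to 4. Old and young ratios overlapped for this pair. For Col4a3 over Col4a4 the ratio ran from 0.522 to 1.67 in old and from 0.465 to 1.28 in young libraries and the ages overlapped. With the log2 values centred within each age, Pearson's r over the 8 libraries was 0.911 between Col4a1 and Col4a2, 0.285 between Col4a3 and Col4a4, -0.439 between Col4a5 and Col4a6 and 0.951 between Col4a3 and Col4a6. The last of these pairs is named because its r was the highest between any of the 6 chains. These are descriptions of 8 libraries that share depth and makeup. The values of Col4a3, and those of Col4a6 in young libraries, rest on few reads.

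Fibroblast and tenocyte genes were higher in old libraries, and the chains were therefore also read with these markers held in the model. Of 17 such markers 7 were called higher and 0 lower by limma, edgeR called 0 lower, DESeq2 called 0 lower, and 1 was lower at a limma p under 0.05 before adjustment. None was at 0 in all libraries, and their summed level ran from 126210 to 396720 normalized counts in old and from 88630 to 163560 in young libraries. With their mean log2 level as a covariate, 6 genes were called higher and 3 lower over all genes, and Col4a6 had a log2 fold change of 4.46 ± 0.40. Col4a5 was at 2.12 ± 0.39 and Col4a1 at -0.68 ± 0.24, and Col4a3 and Col4a2 were at 1.11 ± 0.55 and -0.32 ± 0.39. Col4a5 and Col4a1 were then short of the threshold, which is no test of them, since the chains were chosen on these values. Col4a4 was at -0.18 ± 0.49, opposite in sign to its value without the covariate. Old library 3, the old library with the lowest marker level (10.8), had the lowest Col4a4 of the old libraries.

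Markers of other cell types were read in the same way. Of 14 smooth muscle and pericyte markers, a tissue known to carry α5α5α6, Abcc9 was called higher and 0 lower by limma. By edgeR 1 was called higher and 0 lower, and by DESeq2 1 higher and 1 lower. Their summed level ran from 57756 to 72035 normalized counts in old and from 66966 to 81292 in young libraries, a sum of which Des, also known from muscle stem cells, made up the largest share. Over the list the mean log2 difference (old minus young) was 0.45 and the median log2 fold change 0.55, with 5 markers higher and 1 lower at a limma p under 0.05 before adjustment. With these markers as a covariate Col4a6 was at 4.26 ± 0.30 and Col4a5 at 2.79 ± 0.34. Of 12 Schwann and glial markers none was called by limma, none by edgeR and 1 by DESeq2, and 1 had a limma p under 0.05 before adjustment. Their summed level ran from 14919 to 21680 in old and from 13210 to 24739 in young libraries, and with them as a covariate Col4a6 was at 4.29 and Col4a5 at 2.74. Of 13 tested macrophage and other blood markers Cd14 was called higher, and their summed level ran from 2801 to 6623 in old and from 1549 to 4200 in young libraries. The summed level of 8 adipocyte markers ran from 9359 to 28587 in old and from 9082 to 36966 in young libraries. Fabp4, with a mean of 15733 in old and 18024 in young libraries, made up nearly all of that sum. Adipoq averaged 9.98 in old and 20.5 in young libraries. The summed level of 12 myofibre markers ran from 7970 to 31802 in old and from 12044 to 14772 in young libraries. None of the 4 tested adipocyte or the 12 myofibre markers was called by limma, edgeR or DESeq2 (1 and 0 at an unadjusted p under 0.05). The part of these 3 last groups in the result was not tested. Of the 12 muscle stem cell markers neither edgeR nor DESeq2 called one higher, while 3 were higher at a limma p under 0.05 before adjustment.

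**Figure D4:**
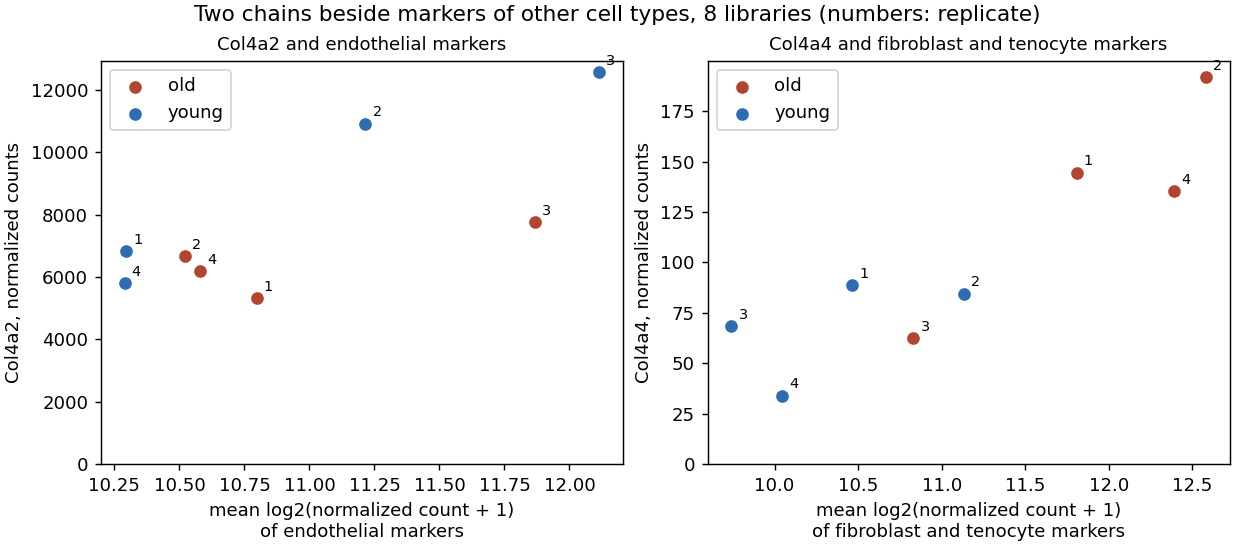
Normalized counts of Col4a2 against the mean log2(normalized count + 1) of endothelial markers (left) and of Col4a4 against that of fibroblast and tenocyte markers (right), each point a library labelled by its replicate number, old in red and young in blue. Library 3 is highest in endothelial markers and in Col4a2 at each age, and old library 3 is lowest of the old libraries in fibroblast markers and in Col4a4. Of the young libraries, library 3 is lowest in fibroblast markers and library 4 in Col4a4.

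Of 29 tested genes of other basement membrane and associated matrix proteins, called partners here, 2 rose and 2 fell, where 3.34% of all tested genes rose and 1.88% fell. Their median log2 fold change was 0.091, against 0.045 over all tested genes. Lamc1, the laminin γ1 chain shared by most laminins, fell to 7066 ± 612 normalized counts in old libraries, against 9909 ± 875 in young libraries (log2 fold change -0.49 ± 0.094, adjusted p = 0.0178, limma with Benjamini-Hochberg adjustment). Sparc, a secreted protein that binds collagens, type IV among them, fell to 22094 ± 3038, against 36859 ± 6169 in young libraries (-0.73 ± 0.14, adjusted p = 0.0179, limma). Ntn4, a netrin that binds laminin, rose to 4372 ± 420, against 3036 ± 144 in young libraries (0.52 ± 0.089, adjusted p = 0.0104, limma). Smoc2, a SPARC-related matrix protein that is also in the fibroblast marker list, rose to 9789 ± 4219, against 2400 ± 815 in young libraries (1.95 ± 0.35, adjusted p = 0.0131, limma). With the fibroblast marker covariate Smoc2 was at 0.57, Ntn4 at 0.35, Lamc1 at -0.67 and Sparc at -0.75, and none was called. Smoc2 is itself part of this covariate, so that its value there is no test of it. In that fit 6 genes were called higher and 3 lower over all genes. With old library 1 left out 0 partners were lower (Lamc1 -0.44, Sparc -0.69) and 2 higher, with young library 1 left out 1 was lower (Lamc1 -0.47) and 2 higher, and Sparc lost its call with old library 2 left out (-0.67). With library 3 of both ages left out 4 were lower and 5 higher.

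Of 34 tested genes of modification, folding, export and cross-linking, 2 rose and 3 fell, where 3.34% of all tested genes rose and 1.88% fell, and the median was 0.0060. Pxdn, the peroxidasin that forms the sulfilimine bonds between globular domains of type IV collagen, had 2575, 2832, 3480 and 2831 normalized counts in old libraries 1 to 4, against 3845, 4669, 4530 and 3847 in young libraries 1 to 4. All old libraries lay below all young ones, as for 5.46% of all tested genes (-0.53 ± 0.11, adjusted p = 0.0252, limma with Benjamini-Hochberg adjustment). Loxl2, a lysyl oxidase known to cross-link type IV collagen, fell to 287 ± 35.3, against 744 ± 204 in young libraries (-1.34 ± 0.19, adjusted p = 0.00562, limma). Lox, the lysyl oxidase best known for fibrillar collagen and elastin, rose to 9481 ± 3254, against 3978 ± 673 in young libraries (1.21 ± 0.20, adjusted p = 0.00934, limma). Creb3l2, a transcription factor of secretory cargo such as collagen, fell (-0.43 ± 0.094, adjusted p = 0.0281, limma), and Crtap, a subunit of the prolyl 3-hydroxylase complex, rose (0.47 ± 0.11, adjusted p = 0.0427, limma). Crtap lost its call in 12 of 24 alternatives, Creb3l2 in 10 and Pxdn in 8, the last among them when young library 2 (-0.48) or old library 1 (-0.47), 2 (-0.52) or 4 (-0.52) was left out. The number of risen genes was 1 when young library 1, 3 or 4 or old library 1, 2 or 4 was left out and 4 when old library 3 was. The number of fallen genes was 1 when young library 2 or old library 1, 2 or 4 was left out. The collagen chaperone Serpinh1 was at -0.026 ± 0.092 and the lysyl hydroxylase Plod3 at 0.064 ± 0.12, both named after their values were seen.

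Of 22 tested receptors of type IV collagen and of basement membranes, 1 rose and 1 fell, where 3.34% of all tested genes rose and 1.88% fell, and the median was 0.12. Itga7, an integrin α chain of the laminin receptor of muscle, had 6927, 6781, 6779 and 7070 normalized counts in old libraries 1 to 4, against 12975, 12450, 9131 and 10131 in young libraries 1 to 4. The old libraries lay close together and below all young ones, the latter as for 5.46% of all tested genes (-0.68 ± 0.11, adjusted p = 0.00954, limma with Benjamini-Hochberg adjustment). Itga11, an integrin chain for fibrillar collagens, rose to 514 ± 317, against 106 ± 62.7 in young libraries (2.20 ± 0.48, adjusted p = 0.0287, limma), but at 0.39, with no call, once fibroblast markers were in the model. Its call was also lost when young library 1 (2.12) or 4 (2.18) or old library 1 (2.33), 2 (1.85) or 4 (2.06) was left out, and 3 receptors were called higher when library 3 of either age was left out. Itga1 and Itgb1, whose integrin binds type IV collagen, were at 0.12 ± 0.43 and 0.0072 ± 0.098, and the collagen receptor Ddr1 at 0.024 ± 0.11, named after their values were seen.

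Of 23 tested genes of type IV collagen turnover 6 rose and 0 fell by limma, where 3.34% of all tested genes rose and 1.88% fell. Their log2 fold changes had a median of 0.72, against 0.045 over all tested genes. No fall was called by edgeR or DESeq2 either (0 each), and 2 genes were lower at a limma p under 0.05 before adjustment. Of the 6 risen genes 4 encode the metalloprotease inhibitors Timp1, Timp2, Timp3 and Reck. Timp1, an inhibitor of matrix metalloproteases, rose to 1251 ± 247 normalized counts, against 614 ± 83.1 in young libraries (1.01 ± 0.16, adjusted p = 0.00662, limma with Benjamini-Hochberg adjustment). Timp2 (0.58 ± 0.13) and Timp3 (0.78 ± 0.16), of the same family, and the membrane-anchored inhibitor Reck (0.87 ± 0.19) rose too. Timp4, also of that family, was not called (0.097 ± 0.45, adjusted p = 0.834, limma, named after its value was seen). Mmp3, the stromelysin that can degrade type IV collagen, had 453, 2313, 218 and 480 normalized counts in old libraries 1 to 4, against 26.4, 85.5, 30.3 and 54.5 in young libraries 1 to 4. All old libraries lay above all young ones, as for 7.99% of all tested genes, with old library 2 far above the others (3.68 ± 0.64, adjusted p = 0.0109, limma). Mmp2, the gelatinase named for type IV collagen, averaged 13935 ± 3373 in old and 15099 ± 2087 in young libraries (-0.14 ± 0.17, adjusted p = 0.705, limma; named after its value was seen). With the fibroblast marker covariate Timp1 was at 0.70, Timp2 at 0.14, Timp3 at 0.90, Reck at 0.29 and Mmp3 at 1.76, and none was called. Over all genes 6 were called higher and 3 lower in that fit. The count of risen genes was 2 when young library 1 or 4 or old library 1 was left out, and 3 when old library 2 or 4 was. Timp2 lost its call in 11 of 24 alternatives, Timp3 in 9 and Reck in 8, while Mmp3 lost it in 2 and Timp1 in 1.

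**Figure D5:**
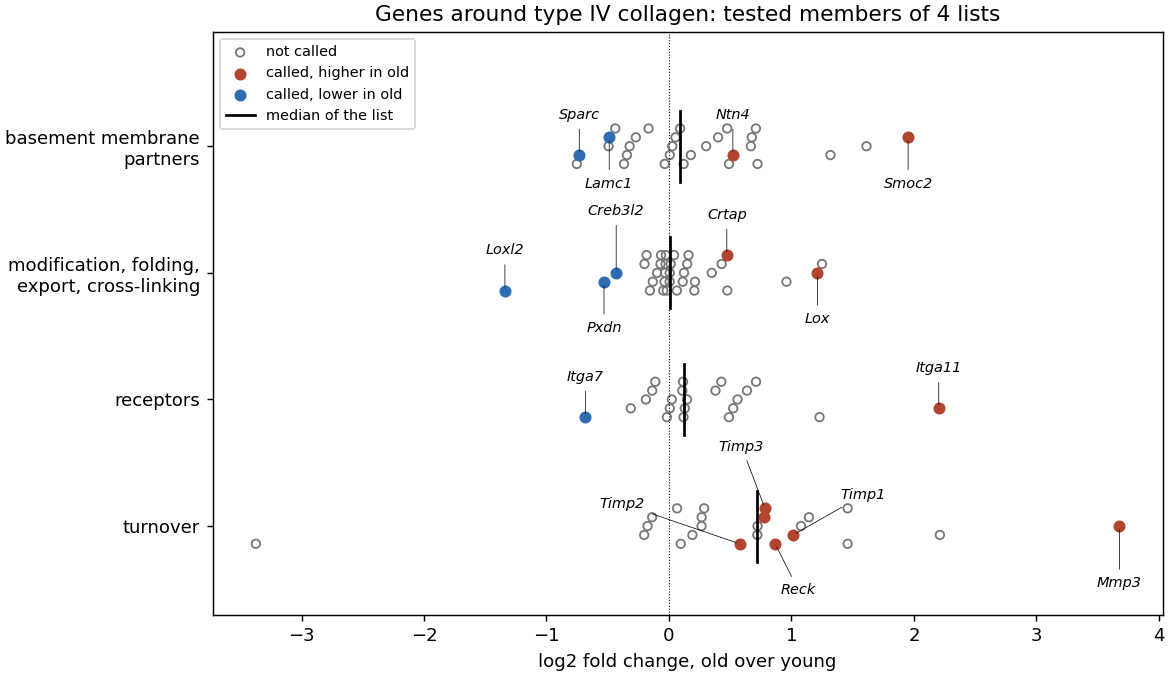
Log2 fold change (old over young) of every tested gene of the 4 lists around type IV collagen, with genes called higher in old in red, called lower in blue, others open, names beside the called genes described in the text, and the median of each list as a vertical line. The median of the turnover list lies at 0.72 and those of the other lists between 0.0060 and 0.12.

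The genes whose levels ran most like those of the chains were sought among the 11524 genes that averaged 50 or more normalized counts. By Pearson's r of log2(normalized count + 1) over the 8 libraries, those most like Col4a6 were the glutathione transferase Gstm2 (r = 0.991), the dynein adaptor Bicd1 (0.988), the epoxide hydrolase Ephx1 (0.982), the cytoplasmic actin Actb (0.981) and the hydrolase Nudt16 (0.979). Since the libraries of the 2 ages stand apart for Col4a6, genes that separate cleanly by age rank high by this measure. Gstm2 averaged 1968 ± 123 normalized counts in old and 1134 ± 80.8 in young libraries, and Actb 114960 ± 10377 in old and 36098 ± 3479 in young libraries. The size of their differences was smaller than that of Col4a6 (log2 fold changes 0.80, 2.39, 0.63, 1.67 and 0.60 in the order given).

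Most like Col4a1 over the 8 libraries were the hexokinase Hk1 (0.974), the amino acid transporter Slc1a4 (0.972), the chromatin regulator Ankrd11 (0.969), Pxdn (0.963) and Ranbp10 (0.960). Pxdn, whose product acts on the α1 and α2 network, is thus the single gene among these 5 that also stands in a list around type IV collagen. With the values centred within each age, the genes most like Col4a1 were Ddit4 (0.983), an inhibitor of mTOR signalling, the spectrin Sptan1 (0.979), Zfp930 (0.978), the ubiquitin ligase Ltn1 (0.976) and Gpalpp1 (0.971). No gene was among the first 5 by both measures. All of these are the highest of many r values over 8 libraries and are given as a ranking, with no p-value.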

How the data were processed

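The deposited table gives, per gene symbol and library, a normalized count (signal), which the authors made from reads; per the submitters' processing notes STAR, Trim Galore 0.4.2, featureCounts, Subread 1.5.1 and DESeq2 were used, and GRCm39 and mm10 are both named, without their roles. Per the labels' protocols the libraries were made from amplified cDNA, and a gene's level can depend on that step. Every value is a multiple of that of 1 read, which gave back reads whole to within 0.01 for at least 99.97% of values above 0. The count tests were run on these reads as an alternative.

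Old and young libraries (4 each) were compared with limma 3.58.1 (R 4.3.3) on log2(normalized count + 1), with an intensity trend and no replicate block, for 14822 genes with a mean of at least 10, two-sided, with Benjamini-Hochberg adjustment and a threshold of 0.05. A fold on this scale understates the change of low genes. The 24 alternatives covered pseudocounts, filters, normalization, variance models, edgeR 4.0.16, DESeq2 1.42.0, marker covariates, the replicate block and left-out libraries. Replicates differed by more than sampling noise. The members and lists were chosen with earlier results of these data known. Named were all members, up to 8 called genes of each list, the 5 genes most like Col4a6 and Col4a1, and 3 stem cell markers; 1 called gene of the turnover list stays in the counts and is not reported here. Promoter sequences of 5 chains came from RefSeq (GRCm38.p6) by symbol, lengths from GENCODE.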

Additional observations from a re-analysis of the deposited data

Results flagged for a closer look

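In 4 of the 52 groups of 4 libraries examined, a single library lay far from the other 3, with a gap that took up more of the range than the 95% critical value of Dixon's test (0.829) allows, which chance does in about 1 in 20 groups. Col4a5 had 720 normalized counts in old library 2, against 522 to 547 in the other old libraries. Lox had 14326 in old library 2, against 7469 to 8408 in the others. Mmp3 had 2313 in old library 2, against 218 to 480 in the others. Pax7 had 3485 in old library 4, against 2436 to 2549 in the other old libraries. Old library 2 also stood highest in its fibroblast and tenocyte markers, at a mean log2 value of 12.6, and the part of these markers in the 3 values was not tested. Without old library 2 the log2 fold change of Col4a5 was 2.67.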

How the results depend on the processing

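Over the 24 alternatives the log2 fold change of Col4a6 ran from 3.89 to 4.48, that of Col4a5 from 2.12 to 2.94 and that of Col4a1 from -0.80 to -0.57, and the sign, which the choice of members fixed in part, is no sign of stability. Over all genes 495 were higher and 278 lower. Without the intensity trend these were 268 and 134, with DESeq2 768 and 601, with the fibroblast marker covariate 6 and 3, with the endothelial covariate 892 and 485, with the smooth muscle covariate 155 and 73, with the Schwann covariate 348 and 166, and without single libraries 212 (old library 2) to 524 and 118 (young library 1) to 316. Each fit with a covariate leaves fewer residual degrees of freedom, the endothelial one as many as the fibroblast one. The mean log2 level of the fibroblast markers differed by 1.56 between ages (old minus young), and that of the endothelial markers by -0.037. A covariate that differs with age also widens the SE of the age difference. The part of each in these counts was not tested.

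Of the chains, which were chosen on these values, Col4a1 fell short of the threshold under quantile normalization (-0.58), without the trend (-0.65), with the fibroblast covariate (-0.68) and without 6 single libraries (range over left-out libraries -0.76 to -0.57), leaving 0 chains past it downward. Col4a5 fell short with the fibroblast covariate (2.12), leaving 1 chain past it upward, and Col4a4 changed sign there (-0.18). Col4a3 lay past it without young library 3 (range 0.78 to 1.21), which is no test of it. Without single libraries 2 to 3 chains were higher and 0 to 1 lower.

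Counts of list genes were small and moved with the settings. Partners (2 higher, 2 lower) came to 4 higher with DESeq2, 5 higher with the endothelial covariate, 0 and 1 with the smooth muscle covariate, 0 and 0 with the fibroblast covariate, 5 and 4 without libraries 3 of both ages, 0 lower without the trend, and 2 to 3 and 0 to 3 without single libraries. Modification genes (2 and 3) came to 1 higher without a filter, with edgeR and with the Schwann and smooth muscle covariates, 1 lower with these covariates, 1 and 1 without the trend, 5 higher with DESeq2 and with the endothelial covariate, 4 higher without libraries 3, 0 and 0 with the fibroblast covariate, and 1 to 4 and 1 to 3 without single libraries. Receptors (1 and 1) came to 2 higher with sample weights and DESeq2, 4 with the endothelial covariate and without libraries 3, 0 higher without the trend and with the smooth muscle covariate, 0 and 0 with the fibroblast covariate, and 0 to 3 higher without single libraries. Turnover genes (6 and 0) came to 2 higher without the trend, 3 higher and 1 lower with the Schwann covariate, 1 with the smooth muscle and 0 with the fibroblast covariate, and 2 to 8 and 0 to 1 without single libraries. The cause of these moves was not tested.

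The replicate numbers are shared between ages, and the deviations of same-numbered libraries correlated at 0.188, 0.0723, 0.304 and -0.0416. Old libraries 1, 2 and 3 and young libraries 1 and 3 correlated best with their own number, and the others did not. Same-numbered libraries were not taken as pairs, and whether they are pairs was not tested. With the replicate block 559 genes were higher and 252 lower, 2 chains were higher and 1 lower, partners and modification genes had 4 higher each, receptors 2 higher and turnover genes 9 higher and 1 lower. Pax7 was at -0.13 with the fibroblast covariate, and Myod1, near 0 throughout, was at 0.069 with the smooth muscle covariate and between -0.22 and 0.086 without single libraries. Young values of Col4a6 rest on as few as 17 reads, which limits the precision of its fold.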
